A study of Mus musculus with 8 samples.

Results

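The genes described here encode the subunits of the mitochondrial respiratory chain and of the ATP synthase that are transcribed in the nucleus. They were chosen by name. The whole symbol was Nduf with a, b, c, s or v and a number, or Sdh with a letter from a to d. Otherwise it began with Uqcr, with Atp5, or with Cox, a number from 4 to 8 and a letter from a to c. This rule used no measured value. It found 95 probes for 76 genes among the 25697 probes of an Illumina MouseRef-8 BeadChip, a 1-color array on which beads carry gene-specific probes. Of these, 82 probes for 68 genes had a detection p-value under 0.05, against the negative control beads of the same array, on at least 3 of 8 arrays, and 64 of the 68 genes did so on all 8. The 68 genes belong to a table of 8488 genes that passed the same limit. They comprised 30 of 32 genes found for complex I, all 3 for complex II, 6 of 8 for complex III, 14 of 17 for complex IV and 15 of 16 for complex V. The rule found no probe for Sdha, so complex II is described without it. The 8 genes that did not pass were Ndufb4, Ndufs1, Uqcrfs1, Uqcrq, Cox7b2, Cox8b, Cox8c and Atp5k. The subunits encoded in mitochondrial DNA are not analysed here.

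The cells were mouse embryonic fibroblasts (MEFs) of strain C57BL6J, isolated at E12.5 and homozygous for a floxed H3f3b allele (H3f3b Fl/Fl), in which Cre removes the coding exons of 1 of the genes for the histone variant H3.3. Each line received a retrovirus carrying Cre with GFP or, as its control, the GFP vector, so every group carried the floxed alleles and had been transduced. The question was which transcripts differ once H3f3b is deleted in cultured fibroblasts. The 8 arrays, 4 of each arm, came from 3 lines named cKO1, cKO2 and pcKO1, with duplicate arrays of cKO2 in each arm. The methods say, without naming a line, that conditional samples were submitted as analytical duplicates, while the paper's results speak of biological replicates. The duplicate arrays of cKO2 were taken as analytical and averaged, which left 3 lines as the replicates. P-values therefore measure only the spread between these 3 lines, and the labels do not say whether they came from separate embryos. A deposited table uses the same culture name in more than 1 pair, once as pooled, so the lines may not be independent.

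Complexes I to IV pass electrons from NADH and succinate to oxygen, and all but complex II pump protons across the inner mitochondrial membrane. Complex V, the ATP synthase, lets the protons return while it makes ATP. Most subunits are encoded in the nucleus, and fibroblasts, like nearly all cells, transcribe most of these genes at high levels. Several subunits of complex IV have isoforms that prevail in muscle, testis or lung.

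H3f3b had log2 intensities of 12.05, 12.42, 12.62 and 11.94 on the GFP arrays of cKO1, the 2 cKO2 duplicates and pcKO1, and of 6.73, 7.40, 7.43 and 9.77 on the matching Cre arrays. Every Cre array was below every GFP array, and the level left in pcKO1 was the highest of the 4. The mean log2 difference was -4.20 ± 0.51 (SE, n = 3 lines), with an adjusted p of 0.188 in limma, where no gene passed the threshold of 0.05. Whether its probe lies in the deleted exons was not examined here. Of the markers on the array, 11 of 11 for fibroblasts passed detection, as did 5 of 9 for muscle. Of the macrophage, epithelial and adipocyte markers on the array, 1 of 6 (Adgre1), 2 of 5 (Krt8 and Krt19) and 1 of 6 (Pparg) passed, none of them on all 8 arrays. Of endothelial markers 0 of 6 passed, and of red cell markers 0 of the 4 on the array. Mean signal per array ran from 435 to 623 in the GFP arm and from 341 to 626 in the Cre arm, and 10134 to 10580 and 9741 to 10888 probes were detected.

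The promoters of many respiratory chain genes are known to hold short sites for NRF1, for GABP and other ETS factors, for the ERR nuclear receptors, for YY1 and for Sp1, so the windows from 250 bases before to 50 after each start in RefSeq (GRCm38.p6) were searched on both strands. Windows were at hand for 59 of the 68 genes, 64 windows in all, some of them overlapping starts of the same gene. GCATGCG, an NRF1 core, occurred in 14.1% of the windows of these genes and in 3.58% of all 32851 windows. TGCGCA, which can overlap that core, occurred in 25% and 7.76%, and the ETS core CCGGAAG in 23.4% and 8.86%. The YY1 core AAGATGG was found in 17.2% and 6.34%, the ERR site AAGGTCA in 7.81% and 4.72%, and GGGCGG, read by Sp1, in 40.6% and 35.7%. These are matches of letters, not bound sites. The comparison was with all windows, not with those of the genes detected here. Whether the excess is particular to respiratory chain genes was not tested.

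The windows of 3 genes on which results below turn are printed, all on the minus strand of GRCm38.p6, with every match to the 6 motifs in capitals. Atp5l (chr9:44920693-44920992) was the only one of the 68 genes with all Cre arrays above all GFP arrays, and its window held matches to the NRF1, ETS and ERR letters. Sdhd (chr9:50603800-50604099) had the highest ratio of Cre over GFP of these genes in any line, and Cox7a2l (chr17:83514284-83514583) was among the genes that differed most between lines, with matches to the Sp1 letters only.
Atp5l: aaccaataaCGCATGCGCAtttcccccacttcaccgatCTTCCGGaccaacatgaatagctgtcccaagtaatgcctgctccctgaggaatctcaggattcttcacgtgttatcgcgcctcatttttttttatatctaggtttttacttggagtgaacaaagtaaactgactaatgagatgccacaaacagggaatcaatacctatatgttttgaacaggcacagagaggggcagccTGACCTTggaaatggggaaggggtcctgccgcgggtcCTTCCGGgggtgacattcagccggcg
Sdhd: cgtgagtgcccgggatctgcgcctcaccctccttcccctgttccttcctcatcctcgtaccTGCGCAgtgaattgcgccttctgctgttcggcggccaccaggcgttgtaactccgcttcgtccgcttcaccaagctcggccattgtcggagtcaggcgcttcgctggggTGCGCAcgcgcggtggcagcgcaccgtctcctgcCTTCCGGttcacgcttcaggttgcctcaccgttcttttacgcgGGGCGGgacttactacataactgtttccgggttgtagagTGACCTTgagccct
Cox7a2l: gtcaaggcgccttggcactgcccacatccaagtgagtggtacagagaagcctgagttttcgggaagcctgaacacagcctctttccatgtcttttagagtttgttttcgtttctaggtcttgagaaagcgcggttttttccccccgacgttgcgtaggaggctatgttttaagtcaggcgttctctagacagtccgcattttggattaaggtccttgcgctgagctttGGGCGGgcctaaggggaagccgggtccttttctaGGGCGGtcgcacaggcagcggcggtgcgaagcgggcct

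Between the arms the respiratory chain genes differed little, and none was called. Their median log2 difference, Cre minus GFP, was -0.03 over the 3 lines, beside -0.008 for all genes. No gene passed an adjusted p of 0.05 in limma, of these 68 or of all 8488 (0.00% in either direction). At an unadjusted p of 0.05, 1 of 68 genes passed, Uqcrc2, which was lower with Cre, where 3.69% of all genes passed (1.64% higher and 2.05% lower). The smallest adjusted p among the 68 was 0.967. For 63 of the 68 genes (92.6%) the 95% interval of the difference lay within 1.5-fold in both directions, as it did for 83.2% of all genes. The median SE was 0.12 log2 units, against 0.141 over all genes. In RNA from a whole culture, fewer cells that express a gene and less of its RNA per cell cannot be told apart.

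The lines did not move together. In cKO1, 28 of the 68 genes had a higher level with Cre and 40 a lower one, where 47.5% and 52.4% of all genes did. In pcKO1 the counts were 28 and 39, beside 48.9% and 50.9%. In cKO2, 48 were higher and 20 lower, beside 51.5% and 48.5%, and 31 were higher and 10 lower in both duplicate pairs (28.5% and 27.3% of all genes), so that 27 had opposite signs in the pairs. In the same order of lines (cKO1, pcKO1, cKO2) the medians were -0.06, -0.03 and 0.05, and those of all genes were -0.03, -0.01 and 0.01. The signs of the respiratory chain medians were the same with the 3 other scalings of the arrays tried, although scaling to equal medians moved the median of all genes in cKO1 to -0.19 and that of the respiratory chain genes there to -0.31. There were 7 genes higher in all 3 lines and 6 lower in all 3, where 12.6% and 13.2% of all genes were. Scaled to equal medians, 1 of the 68, Cox7a2, was higher in all 3 lines, and the share of all genes was not counted there.

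The size of the differences depended on the line. Over the 68 genes the SD was largest in cKO1 (0.32) and smallest in cKO2 (0.11), with pcKO1 between them (0.22), and over all genes the corresponding values were 0.42, 0.18 and 0.26. The cKO2 value is a mean of 2 pairs of arrays, whereas the other lines have 1 pair each. By pair, the SD of the 68 genes in cKO2 was 0.152 and 0.142. In cKO1, 7 genes were past 1.2-fold higher and 18 past 1.2-fold lower, where 22.1% and 27.0% of all genes were. In pcKO1, 6 and 8 were, beside 14.5% and 14.4%, and in cKO2, 1 and 0, beside 5.29% and 5.94%. In the first cKO2 pair alone, 6 were higher and 1 lower (9.53% and 10.7% of all genes), and in the second, 2 and 1 (12.1% and 10.9%). Past 1.5-fold, cKO1 had 1 higher and 5 lower (5.53% and 7.91% of all genes), pcKO1 1 and 1 (1.68% and 1.54%) and the mean of the cKO2 pairs none (0.0707% and 0.424%). By pair, cKO2 had 1 higher (Cox6c) and 0 lower in the first (0.342% and 0.801% of all genes) and none in the second (0.695% and 0.895%). The median absolute difference of the 68 genes was 0.128 and 0.0913 in the first and second cKO2 pair, and 0.0715 for the mean of the pairs. In cKO1 and pcKO1, with 1 pair each, it was 0.2 and 0.123. Between the duplicate arrays of cKO2 the median difference of these genes was 0.114 in the GFP arm and 0.0704 in the Cre arm. Across the 68 genes the differences in cKO1 and cKO2 correlated at r = 0.449, those in cKO1 and pcKO1 at -0.402 and those in cKO2 and pcKO1 at -0.0211. Over all genes these values were 0.174, -0.18 and 0.16. Between the duplicate pairs of cKO2, r was 0.139 over the 68 genes and 0.289 over all genes. Repeat pairs of 1 line thus agreed less over the 68 genes than cKO1 and cKO2 did. The values between lines are therefore no measure of how alike the lines are. Genes are not independent replicates, and each line's arrays share a culture, so these are given as descriptions.

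**Figure D1:**
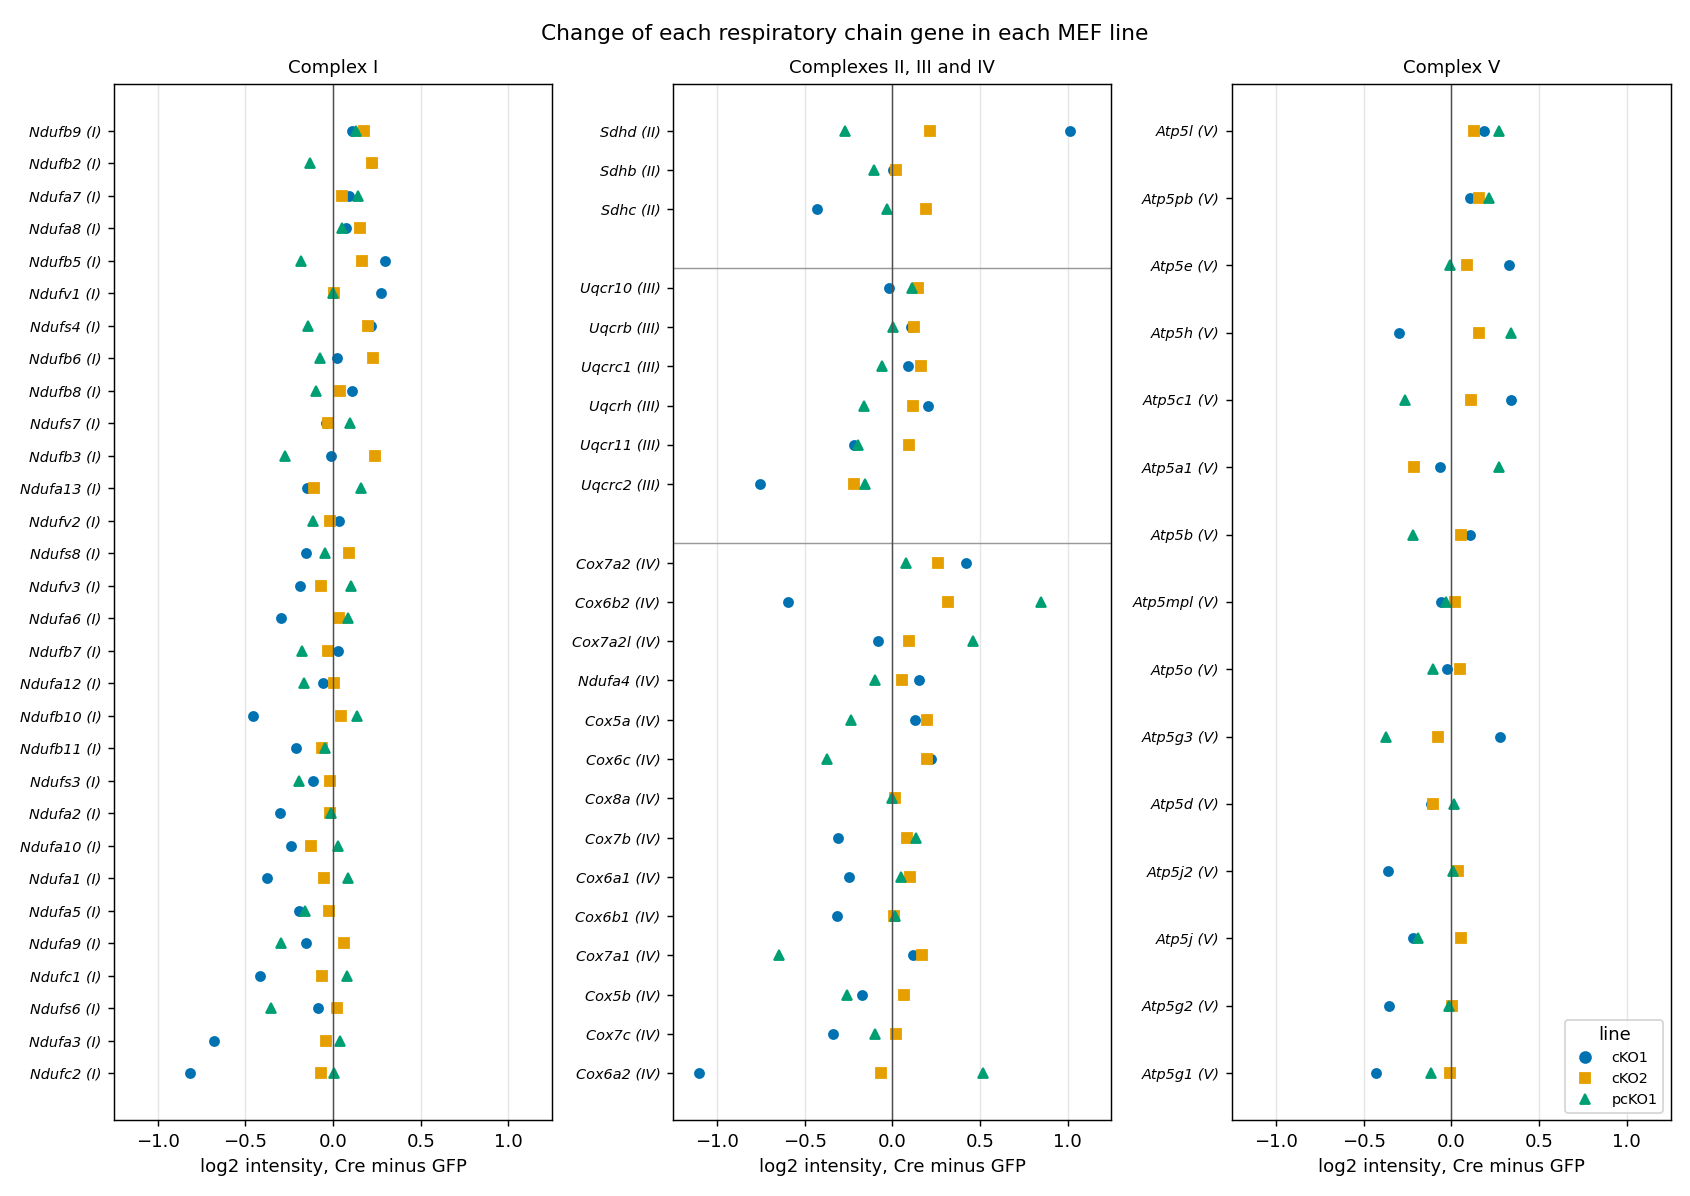
The log2 intensity of each of the 68 genes on the Cre array minus that on the GFP array of its line (x axis), with 1 row per gene grouped by complex and sorted by the mean over the lines, and 1 symbol per line (for cKO2, the mean of its 2 pairs). The squares of cKO2 lie close to 0, while the circles of cKO1 spread from -1.10 (Cox6a2) to 1.01 (Sdhd).

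Complex I, which takes electrons from NADH, had a median of -0.05 over the lines, with 10 of 30 genes higher and 20 lower. Its median was -0.10 in cKO1, where 19 of the 30 were lower, 0.01 in cKO2 and -0.03 in pcKO1, and without cKO1 it was 0.0002. Ndufc2 and Ndufa3, accessory subunits of the membrane arm, had the largest differences. Ndufc2 read 12.02, 11.72, 11.67 and 11.50 on the GFP arrays of cKO1, cKO2 (both duplicates) and pcKO1, and 11.20, 11.67, 11.59 and 11.51 on the Cre arrays. The cKO1 Cre array was the lowest of the 8, whereas the other pairs differed little. The mean difference was -0.29 ± 0.17 (SE, n = 3 lines; limma adjusted p = 0.967). Ndufa3 read 12.45, 12.03, 12.09 and 12.28 with GFP and 11.77, 12.03, 12.00 and 12.32 with Cre. Again only the cKO1 pair stood apart, and the mean difference was -0.23 ± 0.15.

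Ndufs6, a small subunit near the NADH-oxidizing tip, averaged -0.14, with -0.36 in pcKO1, -0.09 in cKO1 and 0.02 in cKO2. Ndufa10 differed by -0.24, -0.13 and 0.03 in cKO1, cKO2 and pcKO1, and Ndufb3, a membrane arm subunit, by -0.01, 0.24 and -0.27. At the other end, Ndufb9, also of the membrane arm, had the highest mean of complex I, 0.14 ± 0.13, from 0.11, 0.18 and 0.13 in cKO1, cKO2 and pcKO1. With Ndufa7 and Ndufa8, it was 1 of 3 genes of complex I that were higher in every line. All 3 had a negative value in cKO1 when the arrays were scaled to equal medians. Ndufs4, whose human counterpart is mutated in Leigh syndrome, was singled out after its values were seen, because 4 separate probes measured it. All 4 were higher with Cre in cKO1 (0.21 to 0.56) and in both cKO2 pairs (0.11 to 0.53), and lower in pcKO1 (-0.38 to -0.06), so the probes gave 1 pattern across the lines. Scaled to equal medians, the brightest of them turned to -0.06 in cKO1. The 3 probes of Ndufv3 were all lower with Cre in cKO1 (-0.48 to -0.19) and all higher in pcKO1 (0.10 to 0.41). They differed in sign in each cKO2 pair and in their means over the lines (-0.05, -0.02 and 0.01).

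Complex II, succinate dehydrogenase, feeds electrons from succinate and has 3 measured genes here. Sdhd, a membrane anchor subunit, had the largest mean difference of all 68 genes upward, 0.32 ± 0.23 (SE, n = 3 lines; limma adjusted p = 0.967). It read 7.52, 7.42, 7.42 and 7.90 on the GFP arrays of cKO1, cKO2 (both duplicates) and pcKO1, and 8.53, 7.66, 7.62 and 7.63 on the Cre arrays. The cKO1 Cre array was the highest of the 8, 2.02-fold over its control, while in pcKO1 the Cre array was the lower of the pair (0.83-fold). Without cKO1 the mean difference was -0.03. In GRCm38.p6, Sdhd and Timm8b, a chaperone gene of the mitochondrial intermembrane space, lie 51 bases apart on chromosome 9, and the printed window of Sdhd overlaps Timm8b. Timm8b differed by 0.23, 0.12 and -0.35 in cKO1, cKO2 and pcKO1, and by 0.25 and -0.01 in the 2 cKO2 pairs. The signs by line matched those of Sdhd. They also matched the medians of the list of import, carrier and cristae genes given below (0.16, 0.03 and -0.25). A link between the 2 neighbours was not tested. Sdhc, the other anchor, had -0.43, 0.19 and -0.03 in the 3 lines. Sdhb, the iron-sulfur subunit, had 0.00, 0.02 and -0.11, and its other detected probe gave a mean of 0.04, against -0.03.

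Complex III, which passes electrons from ubiquinol to cytochrome c, held the single gene past an unadjusted p of 0.05. Uqcrc2, 1 of the large core proteins on the matrix side, read 12.18, 11.55, 11.45 and 11.70 on the GFP arrays of cKO1, cKO2 (both duplicates) and pcKO1, and 11.43, 11.28, 11.29 and 11.54 on the Cre arrays. It was lower with Cre in all 4 pairs, although the arms overlapped, since the pcKO1 Cre array lay above a GFP array of cKO2. The mean difference was -0.38 ± 0.14 (SE, n = 3 lines), or 0.59-fold, 0.86-fold and 0.90-fold by line. In limma the unadjusted p was 0.0296 and the adjusted p 0.967. Without cKO1 the difference was -0.19 and without cKO2 it was -0.46, and in neither case did it pass the unadjusted limit. Without pcKO1 it was -0.49 and passed that limit (limma unadjusted p = 0.00668, adjusted p = 0.259). Its partner core protein, Uqcrc1, had 0.09, 0.16 and -0.06 in cKO1, cKO2 and pcKO1. The other 4 genes of the complex had means between -0.10 (Uqcr11) and 0.08 (Uqcr10), and the 2 probes of Uqcr10 differed in sign (0.08 and -0.04). The median of complex III was 0.06, and it turned to -0.04 when the arrays were scaled to equal medians.

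**Figure D2:**
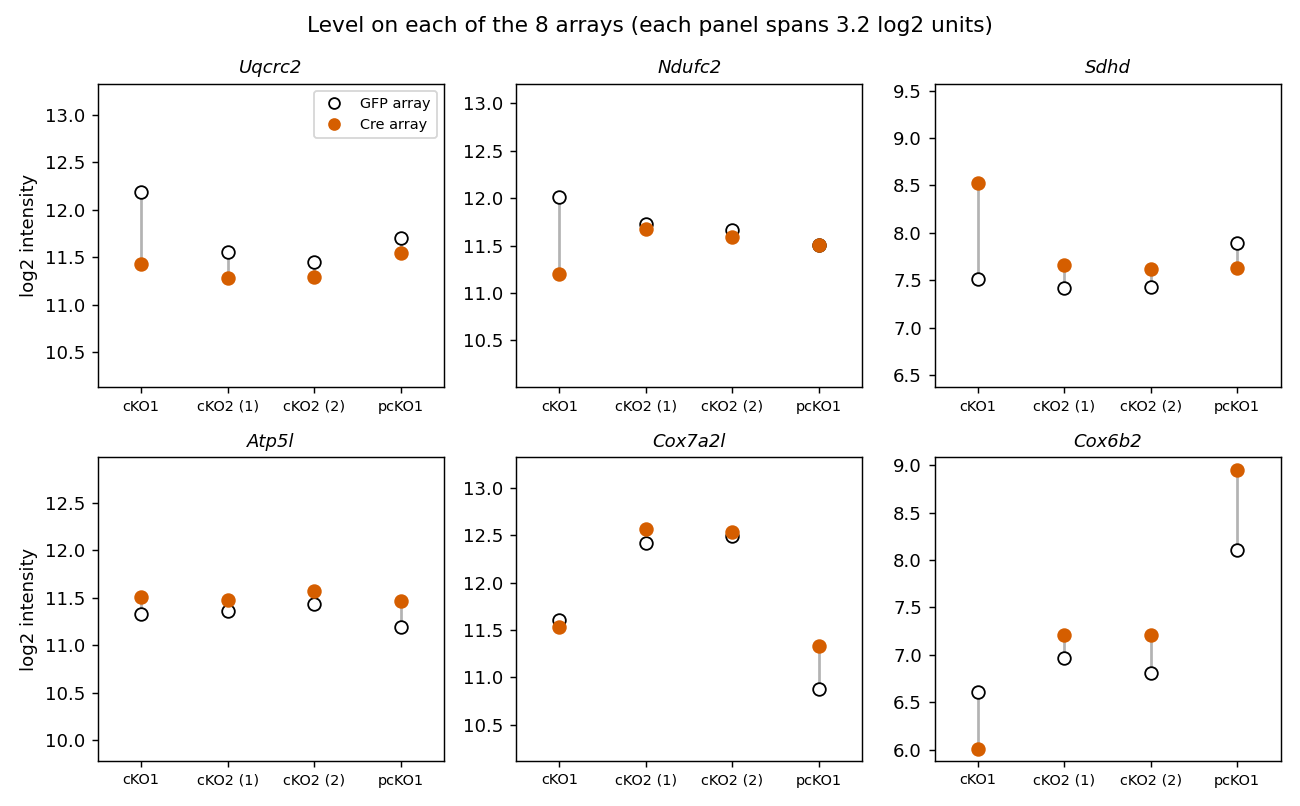
Log2 intensity (y axis) of 6 genes on each of the 8 arrays, with the GFP array (open) and the Cre array (filled) of a pair joined by a line, and the duplicates of cKO2 shown apart. Uqcrc2 was lower with Cre in all 4 pairs and Atp5l higher in all 4, whereas Ndufc2 and Sdhd differed mainly in cKO1, and the levels of Cox7a2l and Cox6b2 differed more between lines than between arms.

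Complex IV, cytochrome c oxidase, had a median of -0.01 over the lines, with 7 genes higher and 7 lower, and medians of -0.13, 0.09 and 0.01 in cKO1, cKO2 and pcKO1. In the mean of the cKO2 pairs 13 of its 14 genes were higher (51.5% of all genes). By pair, 11 and 9 were (49.4% and 51.4% of all genes), and 7 were higher in both (28.5%). Among the widely expressed subunits, Cox7a2 had the highest mean, 0.25 ± 0.14 (SE, n = 3 lines; limma unadjusted p = 0.11). It read 8.20, 8.12, 7.97 and 8.40 with GFP in cKO1, cKO2 (both duplicates) and pcKO1, and 8.63, 8.32, 8.29 and 8.48 with Cre. Each Cre array was above its own control, but the arms overlapped. Cox8a had the smallest differences of the complex, 0.01, 0.01 and 0.00. Cox6a1, Cox6b1 and Cox7c had -0.25, -0.32 and -0.34 in cKO1, and values from -0.10 to 0.10 in cKO2 and pcKO1. Cox6c had 0.22 in cKO1 and -0.37 in pcKO1, and its cKO2 pairs went opposite ways (0.61 and -0.21). Ndufa4, named as a complex I gene but now known as a subunit of complex IV, had 0.15, 0.05 and -0.10.

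The tissue isoforms of complex IV were dim, and none was detected on all 8 arrays. Cox6a2, the heart and muscle isoform, was detected on 2 of 4 arrays in each arm, and had -1.10, -0.06 and 0.52 in cKO1, cKO2 and pcKO1, the widest spread of the 68 genes. Cox7a1, the other muscle isoform, was detected on 2 GFP and 4 Cre arrays and had 0.12, 0.17 and -0.65. The 5 muscle markers that passed detection had median differences of -0.29, -0.07 and -0.38 in these lines. Their summed linear intensity ran from 626 to 2865 in the GFP arm and from 613 to 2245 in the Cre arm. Myod1, Myog, Actc1, Myl1 and Myh3 did not pass detection or were not on the array. The part of the muscle markers in these values was not tested. Cox6b2, the testis isoform, was detected on 3 arrays of each arm and had -0.60, 0.32 and 0.85. It read 6.61, 6.97, 6.81 and 8.11 with GFP and 6.01, 7.21, 7.21 and 8.95 with Cre, so both pcKO1 arrays were above all others. Without cKO1 it was called higher with Cre in limma (0.58), the only one of the 68 genes called in any fit without a line. Of all 8488 genes, the fit without cKO1 called 39 higher and 61 lower. The other probe of Cox6b2, detected on 1 array and so left out, had 0.40 in cKO1, 0.28 and -0.28 in the cKO2 pairs and -0.56 in pcKO1. Cox7b was detected on 2 GFP arrays and 1 Cre array.

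Complex V, the ATP synthase, had a median of -0.03, with 5 genes higher and 10 lower, and medians of -0.06, 0.05 and -0.01 in cKO1, cKO2 and pcKO1. By pair, the cKO2 median was 0.085 and -0.0060. Atp5l, subunit g of the membrane part, read 11.33, 11.36, 11.43 and 11.19 on the GFP arrays of cKO1, cKO2 (both duplicates) and pcKO1, and 11.51, 11.48, 11.57 and 11.47 on the Cre arrays. The lowest Cre array lay above the highest GFP array. This held for 1 of the 68 genes and for 0.401% of all genes, and the reverse, all Cre arrays below all GFP arrays, for 0 and 0.589%. The mean difference was 0.19 ± 0.11 (SE, n = 3 lines; limma unadjusted p = 0.127, adjusted p = 0.967), and in cKO1 it turned from 0.18 to -0.06 when the arrays were scaled to equal medians. Atp5pb, subunit b of the peripheral stalk, was also higher in each line, by 0.11, 0.16 and 0.21, and likewise turned to -0.13 in cKO1 under that scaling.

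Subunit c, which forms the rotor ring, is made from 3 genes with the same mature protein, and their values differed. Atp5g1 had -0.43, -0.01 and -0.12 in cKO1, cKO2 and pcKO1, the lowest mean of the complex (-0.18 ± 0.12). Atp5g2 had -0.36, 0.00 and -0.01. Atp5g3 had 0.28, -0.08 and -0.37. In cKO1, then, 2 of the 3 were lower with Cre and 1 was higher, but scaled to equal medians all 3 were lower there (-0.69, -0.61 and -0.08). Of the catalytic head, Atp5a1, the alpha subunit, had -0.06, -0.21 and 0.27, Atp5b, the beta subunit, 0.10, 0.05 and -0.22, and Atp5c1, the gamma subunit of the central shaft, 0.34, 0.11 and -0.26. The cKO2 pairs of Atp5a1 gave 0.002 and -0.43 and those of Atp5b -0.05 and 0.16. Scaled to equal medians, the cKO1 values of Atp5a1, Atp5b and Atp5c1 were -0.33, -0.28 and 0.04, so the signs of the 3 genes relative to each other depended on the scaling.

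**Figure D3:**
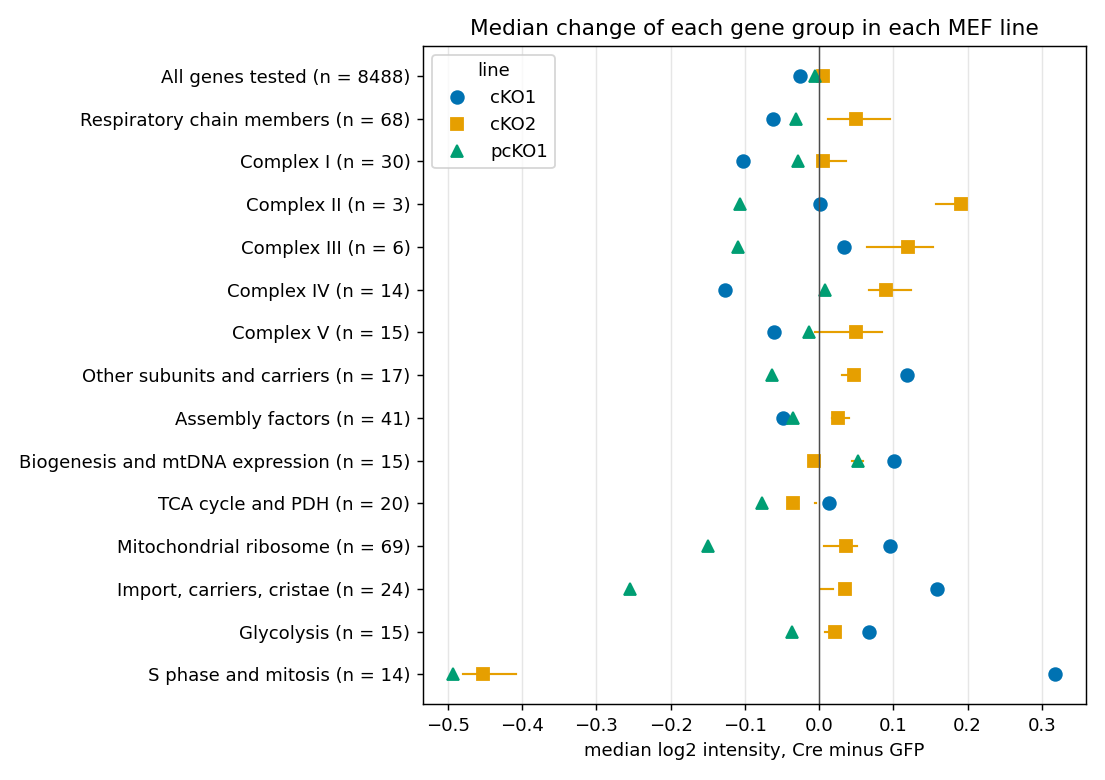
Median log2 difference, Cre minus GFP, of each complex and of the other gene lists (x axis) in each line, with the number of genes in brackets and, for cKO2, a bar between the medians of its 2 duplicate pairs. The respiratory chain genes lie near 0 in all 3 lines (-0.06, 0.05 and -0.03), while the S phase and mitosis genes lie at 0.32 in cKO1 and at -0.45 and -0.49 in cKO2 and pcKO1.

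Genes that work beside these subunits gave no call either. Of the subunits and electron carriers that the names leave out, 17 of 20 passed detection, with a median of -0.01. Cox4i1, the widely expressed isoform of the largest nuclear-encoded subunit of complex IV, had a mean of 0.07, Cyc1, cytochrome c1 of complex III, -0.15, and Coq2, an enzyme of ubiquinone synthesis, 0.43 ± 0.18 (limma unadjusted p = 0.0391, adjusted p = 0.967). Coq2 had 0.93, 0.20 and 0.17 in cKO1, cKO2 and pcKO1, and Coq10b, a ubiquinone-binding protein, 0.79, 0.37 and 0.01. Of 55 assembly factors, 41 passed, with a median of -0.03 and none past an unadjusted p of 0.05. Timmdc1, which helps build complex I, averaged 0.35, and Sdhaf2, which helps mature complex II, 0.31. Among 15 of 19 genes of biogenesis and mtDNA expression (median 0.07), Tfam, which packages mitochondrial DNA, averaged -0.26 and Esrra, a nuclear receptor for which the ERR motif is named, 0.23, and none passed an unadjusted p of 0.05.

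The 20 detected genes of the TCA cycle and pyruvate dehydrogenase, of 25 listed, had a median of 0.00, and 15 of 20 glycolysis genes one of -0.02, with no gene past an unadjusted p of 0.05 in either list. The examples with the smallest p were Pdk3 and Pdha1, a kinase and a subunit of pyruvate dehydrogenase (-0.23 and -0.20), and the glycolytic enzymes Pgam1 and Pfkp (0.35 and 0.19). The mitochondrial ribosomal proteins, which translate the subunits encoded in mitochondrial DNA, had a median of -0.02 (69 of 76 genes), but 0.10, 0.04 and -0.15 in cKO1, cKO2 and pcKO1, and 61 of the 69 were lower in pcKO1, where 50.9% of all genes were. Mrpl23 and Mrpl48 averaged -0.50 and -0.42, and 3 of the 69 passed an unadjusted p of 0.05. The list of import, carrier and cristae genes (24 of 33) had 0.16, 0.03 and -0.25 in the 3 lines, with 20 of 24 lower in pcKO1. Slc25a5, an ADP/ATP carrier, averaged -0.21 and Timm10, an import chaperone, 0.28. The subunit genes themselves numbered 39 of 68 lower in pcKO1, and the difference from those lists was not tested.

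Genes of cell division differed in sign between the lines. The S phase and mitosis genes (14 of 20 detected) had medians of 0.32, -0.45 and -0.49 in cKO1, cKO2 and pcKO1, with all 14 lower with Cre in cKO2 and in pcKO1 and 11 of 14 higher in cKO1. Plk1, a mitotic kinase, averaged -0.59 and Rrm1, a subunit of ribonucleotide reductase, -0.41, with 2 of 14 genes past an unadjusted p of 0.05 and none called in limma. The part of proliferation in the values of the respiratory chain genes was not tested.

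As for most of all genes, the lines differed from each other more than the arms did for most of these genes. For 49 of the 68 genes (72.1%) the range of the 3 line means was larger than the largest difference between the arms in any line, as for 71.7% of all genes. A test of the line term in the same kind of model (limma F test, with the arm as a covariate), added after the values were seen, called 23 of the 68 genes (33.8%), where 44.6% of all genes were called. Here the error is the spread between arms, and both arms of a line come from the same line of cells, so a call says that these lines differed and nothing on embryos or genotypes. Line cKO1 was the highest for 14 of the 23, pcKO1 for 7 and cKO2 for 2, and 20 had the same highest line in both arms. Among all 8488 genes 3788 were called, with cKO1 the highest for 1458, pcKO1 for 986 and cKO2 for 1344. These are 17.2%, 11.6% and 15.8% of the 8488. Complex V gave 8 of 15 genes, complex I 6 of 30, complex IV 6 of 14, complex II 2 of 3 and complex III 1 of 6. Without cKO2, 7 of the 68 were called, where 21.7% of all genes were. Without cKO1 and without pcKO1, 27 were called each time, beside 44% and 41.5% of all genes.

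Atp5o, the stalk protein OSCP, had the smallest adjusted p of the 68, 0.000578 in the limma F test. It read 10.01, 8.54, 8.28 and 9.47 on the GFP arrays of cKO1, cKO2 (both duplicates) and pcKO1, and 9.99, 8.45, 8.47 and 9.37 on the Cre arrays. The order of the lines was the same in both arms, the range of the line means was 2.96-fold, and the arms differed by 0.19 at most within a pair of arrays. Cox7a2l, which has been linked to supercomplexes of complexes III and IV, read 11.61, 12.41, 12.50 and 10.87 with GFP and 11.53, 12.57, 12.53 and 11.33 with Cre. It was highest in cKO2 and lowest in pcKO1 in both arms, over a range of 2.64-fold (adjusted p = 0.000987 in limma), and in pcKO1 it was also 1.37-fold higher with Cre. Cox6b2 had the widest range, 4.67-fold, from a mean of 6.31 in cKO1 to 8.53 in pcKO1 (limma adjusted p = 0.0019), and the line of the 2 arrays that did not detect it is not known.

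Other genes of the chain shared part of this order. Atp5b, Ndufb8, Cox5a and Ndufa12 had their highest line means in cKO1 and, except Cox5a in the Cre arm, their lowest in cKO2, with ranges of 1.68-fold, 1.83-fold, 1.89-fold and 1.82-fold. Ndufa6, an accessory subunit of complex I, had line means of 11.33, 12.30 and 11.34 in cKO1, cKO2 and pcKO1, so that cKO2 stood alone. Across the 68 genes, the difference of cKO2 from cKO1 in the GFP arm correlated with that in the Cre arm at r = 0.83, with the same sign for 57 genes. For pcKO1 against cKO1, r was 0.593 with 47 genes of the same sign, and for pcKO1 against cKO2 it was 0.83 with 51. Over all 8488 genes r was 0.878, 0.753 and 0.879. The 2 arms of a line share their cells, so these values describe the cultures.

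**Figure D4:**
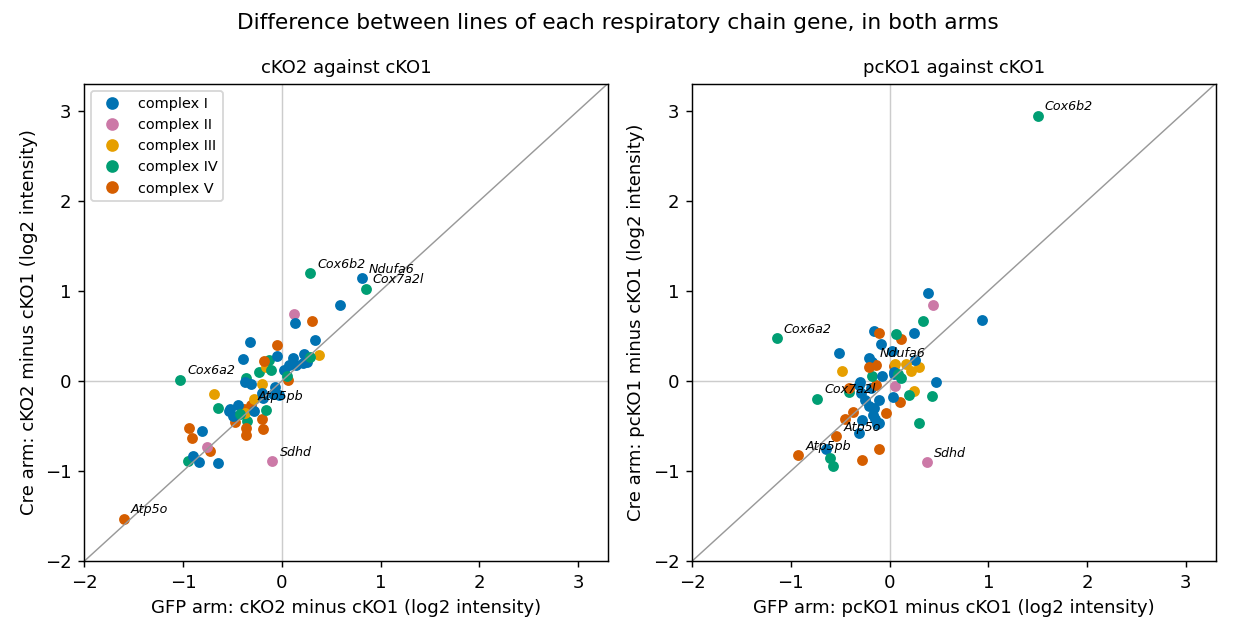
Log2 difference between 2 lines in the GFP arm (x axis) and in the Cre arm (y axis) for each of the 68 genes, colored by complex, with the diagonal as the line of equal difference. Points near the diagonal differ between lines alike in both arms, as Atp5o and Cox7a2l do for cKO2 against cKO1, whereas Cox6a2 and Sdhd lie off it.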

How the data were processed

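RNA was amplified, labelled with biotin and hybridized to 8 Illumina MouseRef-8 arrays. The authors deposited 2 tables of intensity values, made in GenomeStudio per the labels (version not given in the sources used here). In the table named by sample, every array had been scaled to a mean of 508.3. The other table, not normalized, holds a detection p-value for each intensity, deposited by the authors, and its columns name the arm and a culture that the labels do not use, so its columns were assigned to arms, and it served for detection, mean signals per array and 1 alternative. One culture name occurs in 2 of its pairs, once as pooled, so some lines may share an embryo.

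From the table named by sample, normexp background correction (offset 50), quantile normalization and log2 gave the values used. A detection p under 0.05 on 3 or more of the 8 arrays was required (11152 probes), and the brightest probe stood for a gene, which gave 8488 genes, 639 of them without a symbol. Symbols came from the platform annotation (23978 probes with a symbol, 1719 with none) and were updated by gene ID to current mouse names. Of 68 respiratory chain genes, 11 had several detected probes, and for 3 of these the probes differed in sign. The 2 cKO2 arrays of an arm were averaged. The number of arrays limits the precision of every value.

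Cre and GFP were compared with limma 3.58.1 in R 4.3.3, with the line as a block, eBayes with an intensity trend, two-sided p-values and Benjamini-Hochberg adjustment over all 8488 genes. The fit had 2 residual degrees of freedom and 6.31 from the prior, and it was tested on simulated data. The pairing comes from the labels, since both arms of a line are the same cells. Deviations from the arm means correlated between the arms at r = 0.818 in cKO1, 0.919 in cKO2 and 0.749 in pcKO1. Within a line no test was made, as cKO1 and pcKO1 have 1 pair of arrays each.

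The genes, the other gene lists and the tests were chosen with earlier results of these data known. Named genes were H3f3b, the 6 higher and 6 lower genes of smallest unadjusted p, the highest and lowest mean of each complex, the 3 highest and 3 lowest genes of each line, tissue isoforms and subunit c genes, genes whose probes differed in sign, and from each other list the 2 genes of smallest unadjusted p. Other genes named for the difference between lines, for several probes or for a neighbouring start were chosen after their values were seen. Alternatives were the normalization (median, cyclic loess or none), the background correction, the detection limit, the probe rule, the treatment of duplicates, the block, the variance model, neqc on the other table and leaving out each line. Promoter windows came from RefSeq.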

Additional observations from a re-analysis of the deposited data

Results flagged for a closer look

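Each of the 68 genes was examined for an array that stood apart from the other 3 of its arm, by a gap past Dixon's 95% critical value. This was so in 6 of 136 groups of 4 arrays (4.41%), where chance alone gives about 1 in 20, and the arms hold 3 lines and a duplicate, so the 6 are given as values only. On the cKO1 Cre array, Ndufa12 read 11.63 (the other 3 Cre arrays 10.77 to 10.88), Cox5a 13.40 (12.43 to 12.60), Sdhd 8.53 (7.62 to 7.66) and Ndufv3 11.60 (12.06 to 12.14). On the pcKO1 Cre array Ndufc1 read 12.31 (11.88 to 11.91), and on the cKO1 GFP array Ndufv2 read 12.30 (12.00 to 12.05).

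For 6 of the 68 genes the difference between Cre and GFP went opposite ways in cKO1 and pcKO1, past 1.2-fold in each. Since these lines have 1 pair of arrays each, the difference was not tested. Cox6a2 differed by 1.62 log2 units between the lines (-1.10 in cKO1 and 0.52 in pcKO1) and Cox6b2 by 1.44 (-0.60 and 0.85), both at dim levels, and Atp5h, a stalk subunit, by 0.64 (-0.30 and 0.34). Sdhd differed by 1.28 the other way (1.01 and -0.27), Atp5g3 by 0.65 (0.28 and -0.37) and Atp5c1 by 0.60 (0.34 and -0.26). Under other settings fewer of the 6 were opposite past 1.2-fold, 4 with median scaling and 3 with cyclic loess. The values as the authors had scaled them left 3, and omitting background correction left 4. With median scaling Atp5g3 was -0.08 in cKO1, lower in both lines, and Atp5c1 was 0.04 there. Cox6a2 and Atp5h stayed opposite past 1.2-fold in each of these 4 settings.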

How the results depend on the processing

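The count of genes called in limma, 0 of 8488 (313 at an unadjusted p of 0.05), was 4 with median scaling, 3 with the deposited values as they stand, 1 with no detection limit and 5 with the duplicates as separate pairs. H3f3b was among them, at -4.27, -3.87, -4.20 and -4.43. Without 1 line the count was 3 to 100, and H3f3b stood at -5.22 to -3.64. Of the respiratory chain genes, 0 to 1 were called without a line (Cox6b2, without cKO1) and 0 in each other setting. A fit without a line keeps 1 residual degree of freedom, and the spread is pooled over genes. Without the replicate block the difference of Uqcrc2 was again -0.38, but it no longer passed the unadjusted limit, nor did any other of the 68 genes. The same was true with neqc (-0.34).

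With median scaling, the medians were -0.13 over the lines (all genes -0.07) and -0.31 in cKO1 (all genes -0.19). They were 0.12 in cKO2 (all genes 0.04) and -0.12 in pcKO1 (all genes -0.06). Those of complexes I and V were -0.15 and -0.12. Of the 68 genes, 6, 59 and 18 were higher in cKO1, cKO2 and pcKO1. The share of all genes was counted in cKO2 only, where it was 58.8%. The number higher in all 3 lines was 1 in place of 7, and with the deposited values as they stand 11 genes in place of 6 were lower in all 3. The shares of all genes that did so in these settings were not counted. Of the 23 genes called between lines, 15 were among the 16 called with median scaling, where 42.5% of all genes were called. Without a line 7 to 27 were called, beside 21.7% to 44% of all genes. The causes of these shifts were not tested.

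Of 490 values of 29 named genes under the alternatives, 460 kept their direction and their side of the threshold in limma. Another 1 passed the threshold only under the alternative. The other 29 turned, for 16 genes with means near 0 or opposite signs in the lines. Their ranges without 1 line were, on the log2 scale, Atp5a1 (-0.14 to 0.10), Atp5c1 (-0.078 to 0.22), Atp5g3 (-0.22 to 0.10), Cox6a1 (-0.10 to 0.077), Cox6a2 (-0.58 to 0.23), Cox6b1 (-0.15 to 0.012), Cox6b2 (-0.14 to 0.58), Cox6c (-0.089 to 0.21), Cox7a1 (-0.26 to 0.14), Ndufb3 (-0.14 to 0.11), Ndufv3 (-0.13 to 0.018), Sdhb (-0.053 to 0.010), Sdhc (-0.23 to 0.082) and Sdhd (-0.026 to 0.62). With median scaling Atp5c1 turned to -0.040, Cox6c to -0.070, Cox8a to -0.10 and Uqcr10 to -0.0020. With the deposited values Cox6c turned to -0.0062 and Cox8a to -0.030. Atp5a1 turned to 0.069 with the first cKO2 pair and Cox6c to -0.12 with the second. With the duplicates as separate pairs Cox6a1 turned to 0.0029 and Ndufb3 to 0.048, with neqc they turned to 0.0025 and 0.050, and Sdhb turned to 0.0072 with the mean of its probes.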
